A study of Mus musculus with 6 samples.

Results

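The 40 genes described here encode proteins that bind actin filaments, pull on them as part of actomyosin, or tie them to the cell surface at focal adhesions. They were listed by name, actin genes were left out, and each gene was read from the probe sets (the array's groups of short probes for a transcript) that carry its symbol and no other. This gave 114 of the 45101 probe sets on the array, and 88 of them, for 38 of the 40 genes, were bright enough to test. The arrays measured total RNA from whole livers of 6 male mice aged 3 weeks, 1 array per mouse. The 3 control mice were Srf loxP/+ AlfpCre, with 1 loxP-flanked copy of Srf and 1 normal copy. The 3 mutant mice were Srf loxP/loxP AlfpCre, with both copies flanked. All 6 thus carried the AlfpCre transgene, in which albumin and alpha-fetoprotein control elements drive Cre recombinase in cells of the hepatocyte lineage, and the controls carried a floxed allele too. The design text states that the mutant tissue lacked Srf. The comparison asks how these cytoskeletal transcripts differ between livers with both copies of Srf floxed and livers with 1.

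SRF, or serum response factor, recognises a short DNA element called the CArG box. With its cofactors MRTF-A and MRTF-B, which are held in the cytoplasm by monomeric actin, it drives genes of the actin cytoskeleton, so that actin assembly feeds back on the supply of cytoskeletal proteins. In liver, actin and its partners shape the bile canaliculi of hepatocytes, while smooth muscle cells and activated stellate cells hold most of the contractile isoforms. A whole-liver array reads all of these cells together, so fewer cells of a type and less RNA per cell cannot be told apart.

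CArG boxes near the start sites are shown first because SRF is the factor whose gene was targeted. RefSeq promoter windows (GRCm38.p6, from 250 bases before a start site to 50 after it) were at hand for 38 of the 40 genes, all but Myh11 and Tagln, with 47 windows in all. Each was searched for the strict CArG box of 10 bases with no mismatch, a pattern that reads the same on both strands. A box was found in 9 windows of 8 genes, which is 21.1% of the 38 genes, beside 1.81% of all 27025 genes with a window. Over windows the shares were 19.1% of 47 and 1.63% of 32851. A match says only that these letters are present. Of the 8 genes with a box 7 were tested, and in 4 of these the control and mutant values did not overlap. The share without overlap was 34.2% over the member genes tested and 24.9% over all genes tested. Whether a box goes with a difference was not tested. The windows of the 4 genes are printed whole, with the box in capitals: Vcl, Fermt2 and Myl9, which lay lower in every mutant, and Myl6, which lay higher. The Myl6 window is that of 1 of its 2 listed start sites, and the window of the other held no box.
Vcl, chr14:20929148-20929447, plus strand: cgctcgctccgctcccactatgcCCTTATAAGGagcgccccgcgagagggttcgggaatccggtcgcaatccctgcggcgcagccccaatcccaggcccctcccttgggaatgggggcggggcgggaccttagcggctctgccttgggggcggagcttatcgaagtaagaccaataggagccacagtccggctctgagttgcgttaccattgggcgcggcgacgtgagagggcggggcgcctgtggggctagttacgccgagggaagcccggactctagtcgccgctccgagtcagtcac
Fermt2, chr14:45530016-45530315, minus strand: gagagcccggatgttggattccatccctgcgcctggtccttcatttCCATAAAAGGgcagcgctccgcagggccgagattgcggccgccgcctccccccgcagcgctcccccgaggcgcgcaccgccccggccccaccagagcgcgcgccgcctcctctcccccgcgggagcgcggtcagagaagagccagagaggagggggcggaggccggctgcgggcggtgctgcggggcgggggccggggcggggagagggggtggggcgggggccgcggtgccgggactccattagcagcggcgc
Myl9, chr2:156775214-156775513, plus strand: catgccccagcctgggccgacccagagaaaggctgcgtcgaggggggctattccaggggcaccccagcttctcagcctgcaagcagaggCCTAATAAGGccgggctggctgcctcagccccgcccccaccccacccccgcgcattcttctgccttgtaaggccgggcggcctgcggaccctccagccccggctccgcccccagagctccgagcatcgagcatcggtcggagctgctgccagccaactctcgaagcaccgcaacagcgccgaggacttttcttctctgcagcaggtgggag
Myl6, chr10:128492960-128493259, minus strand: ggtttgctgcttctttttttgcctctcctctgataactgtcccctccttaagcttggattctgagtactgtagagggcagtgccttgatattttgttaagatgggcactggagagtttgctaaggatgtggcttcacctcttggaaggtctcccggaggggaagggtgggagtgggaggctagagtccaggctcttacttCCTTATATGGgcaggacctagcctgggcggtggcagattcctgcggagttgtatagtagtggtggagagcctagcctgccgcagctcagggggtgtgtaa
The box began 227 bases before the start site in Vcl, 204 in Fermt2, 161 in Myl9 and 50 in Myl6. The other 5 boxes are given with 10 bases on each side, and belong to 3 genes whose groups overlapped, Cnn2, Fhl1 and Fhl2, and to Vil1, which was too dim to test. Fhl2 had a box at each of 2 start sites.
Cnn2, chr10:79988534-79988563, plus strand: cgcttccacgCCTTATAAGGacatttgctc
Fhl1, chrX:56779571-56779600, plus strand: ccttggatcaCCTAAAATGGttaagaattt
Fhl2, chr1:43163973-43164002, minus strand: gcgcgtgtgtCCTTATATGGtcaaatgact
Fhl2, chr1:43196838-43196867, minus strand: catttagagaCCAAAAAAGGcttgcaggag
Vil1, chr1:74409301-74409330, plus strand: ccctatcttcCCTTATATGGtgaaggaagt
Of the 10 member genes that lay lower in every mutant, all had a window and 7 held no box in it.

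Each array value below is the log2 of the signal after all arrays were scaled to a common trimmed mean, and 0 stands for a signal at or under 1. A background level was taken from 81 probe sets of chemosensory receptors, and its 95th percentile was 2.88 in controls and 3.06 in mutants. Srf itself read 5.31, 5.14 and 5.11 in controls and 4.17, 5.24 and 2.54 in mutants on 1418256_at, so mutant 2 was at the level of the controls there (adjusted p = 0.398, limma). On the dimmer 1418255_s_at it read 3.00, 3.69 and 3.37 in controls and 3.29, 0 and 1.99 in mutants, with mutant 2 lowest. Neither probe set can check the labels, since their position in relation to the floxed exon is not known here. RNA quality differed between arrays. The log2 ratio of 3' to 5' signal, averaged over the array's controls for Actb, Gapdh and Pcx (probe sets at both ends of each transcript), ran from 0.78 to 1.22 in controls and stood at 2.18 in mutant 1, 1.18 in mutant 2 and 1.57 in mutant 3 (two-sided exact permutation p = 0.2, where 0.1 is the smallest that 3 against 3 arrays allow). On this average mutant 2 was inside the control range and the other mutants above it. For Gapdh alone the 3' to 5' ratio, not in log2, was 0.68 to 0.76 in controls and 0.77 to 1.01 in mutants. Every mutant thus lay above every control for Gapdh (two-sided exact permutation p = 0.1), while for Actb and Pcx mutant 2 lay inside the control range. The hepatocyte markers Alb and Ttr had log2 signals of at least 12.53 on every array, and the summed signal of 8 hepatocyte markers ran from 44906 to 52670 in controls and from 55729 to 72590 in mutants.

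No member gene passed the test of mutant against control: 0 of 38 had an adjusted p under 0.05 (limma, p-values adjusted by Benjamini-Hochberg across the 27022 probe sets tested), where 0.114% of all 13144 genes tested did. The smallest adjusted p among the member genes was 0.287. At an unadjusted p under 0.05, 3 were lower and 2 higher, together 13.2% of 38, beside 14.4% of all genes (7.01% lower and 7.36% higher). That share is near the background and is not a result about these genes. The counts below therefore describe 6 livers, and a p above the threshold does not show that a gene was equal in both groups.

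The genes nevertheless lay mostly below the controls. The median log2 difference, mutant minus control, was -0.31 over the 38 member genes and 0.06 over all genes, and 27 of 38 (71.1%) were below 0 beside 45.9% of all genes. The groups did not overlap in 13 of 38 genes (34.2%), beside 24.9% of all genes. In 10 genes every mutant array lay below every control array (26.3%, against 10.8% of all genes), and in 3 every mutant lay above (7.89%, against 14.1%). The 10 were Vcl, Fermt2, Pdlim5, Myl9, Mylk, Tpm1, Tpm2, Cald1, Cfl2 and Wdr1, and the 3 were Tagln2, Myl6 and Cnn3. On the deposited scaling 35 of 38 were below 0, and 31 when arrays were centred on their median. The median of all genes was itself below 0 in both settings, so these larger counts follow the scaling. The deposited scaling gave medians of -0.76 for the members and -0.39 for all genes, and centring gave -0.54 and -0.17. Relative to all genes, the member median was thus -0.37 on either scaling. Scaling moves all genes of an array by about the same amount, so this value was bound to stay nearly the same.

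**Figure D1:**
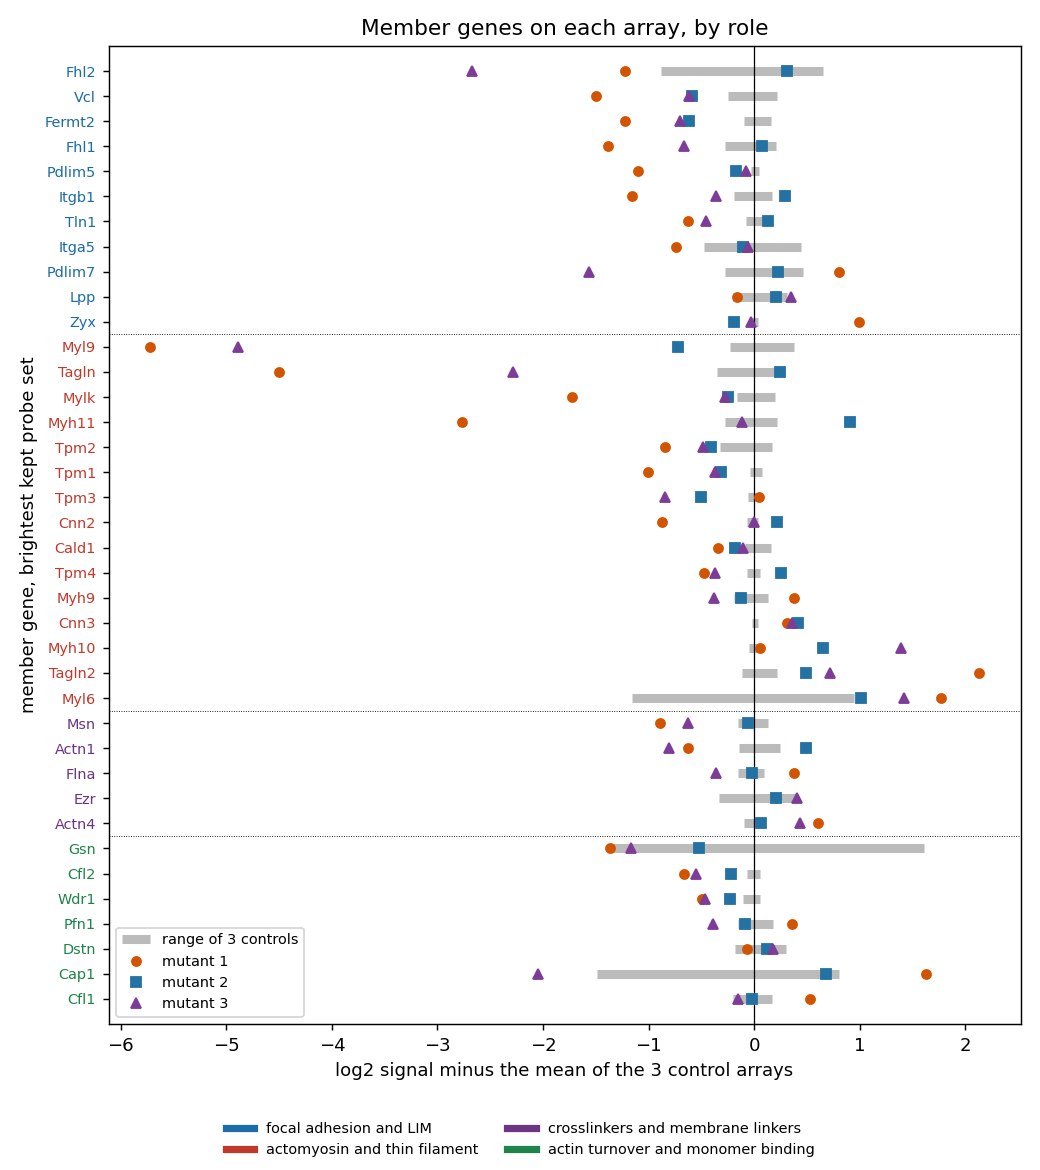
Log2 signal of each of the 38 member genes on the 3 mutant arrays, minus the mean of the 3 control arrays (x axis), with genes in rows by role and the range of the controls as a grey bar. Mutants 1 and 3 lie left of the grey bar for 22 and 25 genes, mutant 2 for 12.

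The mutant livers were not alike. The median member gene stood at -0.56 in mutant 1, 0.02 in mutant 2 and -0.37 in mutant 3 relative to the control mean, where all genes stood at 0.07, 0.07 and 0.14. Mutant 1 lay below all controls for 22 of 38 member genes (57.9%, against 38.4% of all genes), mutant 3 for 25 (65.8%, against 29.0%) and mutant 2 for 12 (31.6%, against 26.9%). Mutant 2 lay inside the control range for 16 genes (42.1%, near the 40.05% of all genes), mutant 1 for 4 (10.5%, against 20.7%) and mutant 3 for 6 (15.8%, against 28.9%). The mutant with the smallest shift is also the one whose averaged 3' to 5' ratio lay inside the control range. With the 3' to 5' index as a covariate the member median was -0.01, 19 of 38 genes were below 0, and the median of all genes was 0.09. Index and group overlap only through mutant 2, so values with the covariate, here and below, lean on that array. They are given without an interval and are not estimates freed of RNA quality.

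Focal adhesions anchor actin bundles to integrins through talin, vinculin and kindlins. Of the 11 genes of this group, which also holds LIM domain proteins, 9 had a log2 difference below 0, 3 lay lower in every mutant and none higher (27.3% separated, near the 24.9% of all genes), and the group median was -0.41. Fermt2 (1434180_at), which encodes kindlin-2, an activator of integrins, had log2 signals of 9.57, 9.78 and 9.54 in controls and 8.40, 9.01 and 8.92 in mutants. All 3 mutants were lower, and the control mean was 1.80-fold above the mutant mean (log2 difference -0.85, SE 0.24, 95% interval -1.40 to -0.30, adjusted p = 0.287, limma), the smallest adjusted p among the member genes. Its other kept probe set (1434181_at) read 8.69, 8.57 and 8.09 in controls against 6.72, 7.80 and 7.25 in mutants, again with no overlap.

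Vinculin, Vcl, binds talin and actin and strengthens adhesions under tension. On 1416156_at it read 7.74, 7.55 and 7.28 in controls and 6.02, 6.94 and 6.90 in mutants, a 1.87-fold lower mutant mean (log2 difference -0.90, SE 0.31, adjusted p = 0.326, limma). Its dimmer probe set 1416157_at read 4.38, 4.32 and 3.50 in controls against 0, 3.15 and 1.57 in mutants. Both probe sets thus put every mutant below every control, with mutant 1 lowest. With the 3' to 5' index as a covariate the log2 difference was -0.27 for Vcl and -0.44 for Fermt2.

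Pdlim5, a PDZ and LIM protein of actin fibres, had 6 kept probe sets, and the difference was below 0 on each. The groups overlapped on all of them but the brightest. The brightest (1427475_a_at) read 7.59, 7.59 and 7.66 in controls and 6.52, 7.44 and 7.53 in mutants. The groups were separated, but mutants 2 and 3 lay within 0.25 of the controls' mean and mutant 1 more than 1 below it (log2 difference -0.45, SE 0.31, adjusted p = 0.490, limma). On 1450786_x_at the spread was wider, with 7.15, 7.07 and 6.79 in controls and 3.29, 6.82 and 5.80 in mutants. With the 3' to 5' index as a covariate the log2 difference of the brightest turned to 0.088.

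The remaining adhesion genes overlapped between the groups. Tln1, talin, which links integrin tails to actin, had a log2 difference of -0.32 (95% interval -0.95 to 0.32). The integrin subunits Itgb1 and Itga5 had -0.41 and -0.30, and for Itgb1, given in more detail after its values were seen, mutant 2 lay above all controls at 8.58 while mutant 1 read 7.13. The LIM proteins Fhl1 and Fhl2 had -0.66 and -1.19, but 2 of the 3 controls and 1 of the 3 mutants were above background for Fhl2. Zyx, zyxin, a sensor of strain in actin bundles, and Lpp, its relative, had 0.26 and 0.13, and Pdlim7 had -0.18 with mutants from 3.39 to 5.76. Their adjusted p-values ran from 0.440 to 0.896 (limma), and the interval of each held 0.

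Actomyosin and the proteins along the thin filament had separated groups in both directions. Of the 15 genes tested, 11 were below 0 and 4 above, 5 lay lower and 3 higher in every mutant (53.3% separated, beside 24.9% of all genes), and the median was -0.22. Cnn1, calponin 1 of smooth muscle, was below background on every array and was not tested. Myl9 (1452670_at), the regulatory myosin light chain of smooth muscle and non-muscle cells, read 6.10, 5.49 and 5.57 in controls and 0, 5.0 and 0.84 in mutants. Mutants 1 and 3 were below background, and mutant 2 was above it but under the lowest control. The log2 difference was -3.78 (SE 1.15, 95% interval -6.42 to -1.13, adjusted p = 0.299, limma). Its size rests on signals below background: with 32 added to each signal before log2 it was -1.04.

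Tagln (1423505_at), transgelin or SM22, an early smooth muscle marker, was named for its likeness to Myl9 after its values were seen. It read 4.96, 5.14 and 4.52 in controls and 0.37, 5.12 and 2.59 in mutants, so mutant 2 lay inside the control range and mutants 1 and 3 below background (log2 difference -2.18, SE 1.03, adjusted p = 0.381, limma; -0.49 with 32 added to each signal). Without mutant 2, Myl9 was the one member gene to pass the test (adjusted p = 0.00500, limma), in a comparison of 3 against 2 arrays where 2.36% of all genes passed. In the other alternatives its adjusted p ran from 0.185 to 0.929 (limma). For Tagln it was then 0.0575 (limma), and 0.338 to 0.936 otherwise. Both mutant arrays left in that comparison were below background for Myl9 and Tagln, so no size is given for it, and the array left out was the mutant with both above background. Without mutant 1, 0 of 38 member genes passed, where 0.631% of all genes did, and the log2 differences were -2.80 for Myl9 and -1.02 for Tagln.

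Markers of other liver cells also varied between the arrays. The summed signal of 12 stellate cell and fibroblast markers was 3594 to 4111 in controls and 1283, 3862 and 2173 in mutants 1 to 3, and 11 of the 12 had a log2 difference below 0. All 12 were above background on at least 1 array. The 10 smooth muscle markers summed to 325 to 379 in controls and 170, 926 and 369 in mutants, and Actg2, Myocd, Lmod1, Synpo2 and Kcnmb1 were below background throughout. This sum followed the pericyte gene Rgs5, named with Acta2 after their values were seen, at 7.73 to 7.94 in controls and 6.44, 9.64 and 8.12 in mutants on the log2 scale. Acta2, smooth muscle actin, read 6.15, 6.45 and 5.75 in controls and 4.42, 6.15 and 5.18 in mutants, with mutants 1 and 3 below every control. Endothelial markers, 10 of them, summed to 837 to 1190 in controls and 472, 1617 and 789 in mutants, with 6 below 0 and 4 above. Kupffer cell and macrophage markers, also 10, summed to 1823 to 2507 in controls and 1290, 1975 and 1371 in mutants, with 8 below 0 and 2 above. In the summed signals of the stellate, endothelial and macrophage lists mutants 1 and 3 were below every control and mutant 2 inside or above the control range. For Myl9 mutant 2 also lay below every control and for Tagln inside their range. The sums follow the brightest markers. Of the 12 stellate cell and fibroblast markers, 3 had every mutant below every control, as Myl9 did, and 9 overlapped (25% separated, beside 24.9% of all genes). The 3 were Col1a1, Col1a2 and Col3a1, named after their values were seen, with mutant 2 at 4.73, 6.86 and 8.61. Of the markers tested, 4 of 4 for lymphocytes and 2 of 2 for erythroid cells were below 0, and 4 of 4 for cholangiocytes above. Some of these, named after their values were seen, were near background. Sox9 was above it on 0 control arrays and 1 mutant array, Krt7 on 1 and 2, and Cd3g and Cd79a each on 2 and 1. The others were above it on every control array. With the 3' to 5' index as a covariate the log2 difference was -1.11 for Myl9 and 0.61 for Tagln. The part that cell make-up or RNA quality has in the result was not tested.

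**Figure D2:**
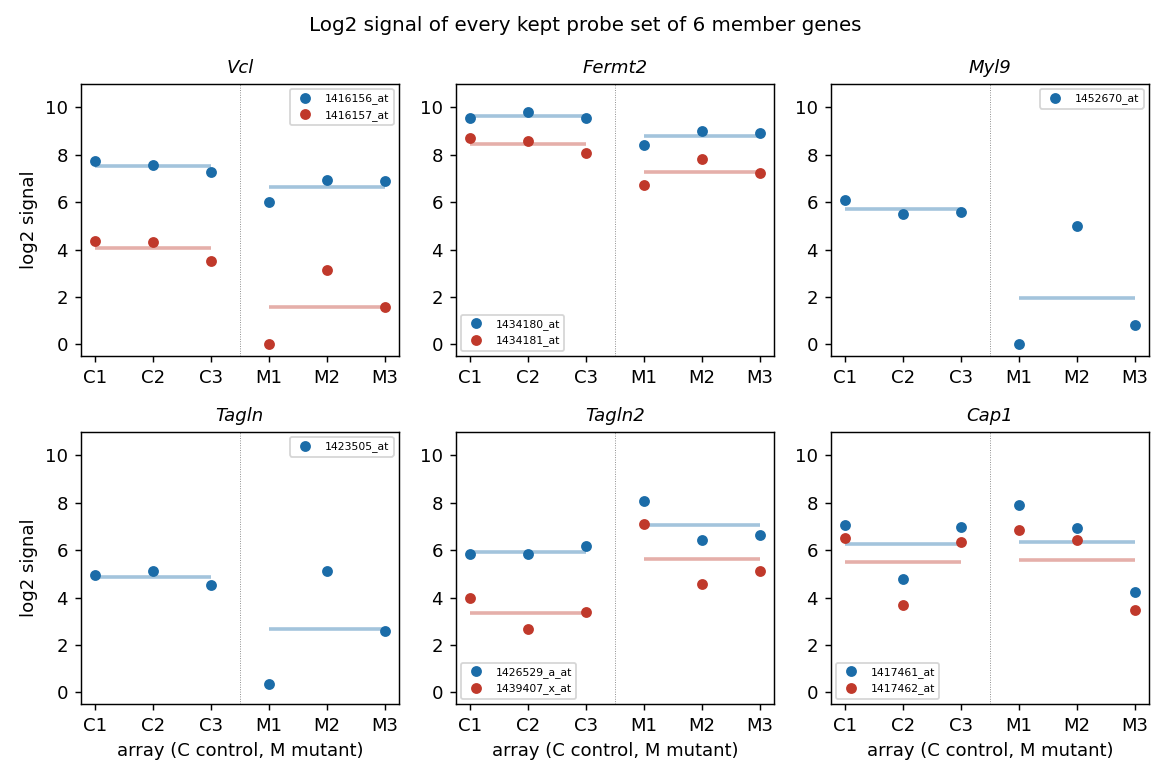
Log2 signal of every kept probe set of Vcl, Fermt2, Myl9, Tagln, Tagln2 and Cap1 on control arrays C1 to C3 and mutant arrays M1 to M3, where each colour is a probe set and each horizontal bar a group mean. Vcl and Fermt2 are lower in all mutants, Myl9 and Tagln mainly in mutants 1 and 3, Tagln2 is higher in all mutants, and Cap1 is low in control 2 and mutant 3.

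Other thin filament genes differed less. Mylk, myosin light chain kinase, which phosphorylates the regulatory light chain, read 7.31, 6.95 and 7.08 in controls and 5.38, 6.86 and 6.84 in mutants on 1425506_at (log2 difference -0.75, SE 0.41, adjusted p = 0.418, limma). Mutants 2 and 3 lay just under the lowest control, and mutant 1 lay far below. With the 3' to 5' index as a covariate the log2 difference of Mylk turned to 0.12. The tropomyosins, which run along the filament and gate myosin and cofilin, were below 0 in 4 of 4. Tpm1 (1423721_at) read 6.54, 6.65 and 6.56 in controls and 5.58, 6.26 and 6.21 in mutants, with a log2 difference of -0.56 (SE 0.27). Tpm2 (1419738_a_at) read 5.30, 5.79 and 5.79 in controls and 4.78, 5.22 and 5.14 in mutants, with -0.58 (SE 0.28). On these probe sets all mutants were below all controls for both genes, without passing (adjusted p = 0.384 and 0.387, limma). On a dimmer kept probe set of each gene the groups overlapped, with differences of -0.66 and -0.25. Tpm1 (1423049_a_at) read 5.64, 5.75 and 5.80 in controls and 4.15, 6.14 and 4.92 in mutants there. Tpm2 (1425028_a_at) read 3.46, 3.88 and 3.82 in controls and 2.90, 3.13 and 4.39 in mutants. Tpm3 and Tpm4 overlapped between the groups, at -0.43 and -0.20.

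Caldesmon, Cald1, inhibits myosin on actin and had probe sets that differed among themselves. The brightest (1424769_s_at) read 10.55, 10.78 and 10.54 in controls and 10.28, 10.45 and 10.52 in mutants, a difference of -0.21. The mutants were all below the controls, but mutant 3 lay almost at the lowest control. On 1424768_at the values were 9.26, 9.52 and 8.77 against 6.75, 8.66 and 8.47, and on 1424770_at they were 8.28, 8.19 and 7.89 against 5.88, 7.68 and 7.55. These dimmer probe sets had differences of -1.22 and -1.09, and mutant 1 lay furthest below the controls on both. An ending of s, x or a in a probe set's name marks probes that can detect more than 1 transcript.

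The transcripts that lay higher in all mutants were of the same role. Tagln2, transgelin 2, the form found in non-muscle cells, read 5.84, 5.83 and 6.16 in controls and 8.07, 6.44 and 6.66 in mutants on 1426529_a_at, a 2.17-fold higher mutant mean (log2 difference 1.11, SE 0.43, 95% interval 0.12 to 2.10, adjusted p = 0.343, limma). Its probe set 1439407_x_at read 3.97, 2.66 and 3.39 in controls and 7.10, 4.58 and 5.14 in mutants. Mutant 1 was highest on both probe sets, and no mutant overlapped a control. With the 3' to 5' index as a covariate the log2 difference of Tagln2 was 0.07.

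Calponin 3, Cnn3, a non-muscle actin-binding protein, was tightly spread on its brightest probe set. Its brightest probe set (1436836_x_at) read 10.74, 10.68 and 10.69 in controls and 11.01, 11.12 and 11.06 in mutants, a 1.28-fold higher mean (log2 difference 0.36, SE 0.18, adjusted p = 0.396, limma). The 6 kept probe sets of Cnn3 were all above 0, between 0.06 and 0.71, but the groups were separated only on 1436836_x_at and 1456380_x_at. On 1426724_at mutant 1, at 8.69, lay below every control (9.03 to 9.28). For the brightest probe set the difference was 0.42 with the 3' to 5' index as a covariate. On the deposited scaling it was -0.09, where the median of all genes was -0.39. Cnn3 thus lay above the median of all genes on either scaling, as it had to, since scaling moves all genes about alike. Myl6 (1435041_at), the essential light chain of non-muscle and smooth muscle myosin, read 3.08, 3.82 and 1.72 in controls and 4.65, 3.89 and 4.29 in mutants (log2 difference 1.40, SE 0.58, adjusted p = 0.355, limma). It was near background, with 1 control below it, and the gap between the highest control and the lowest mutant was small.

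The myosin heavy chains were split. Myh9 had 4 kept probe sets, 2 below and 2 above 0, and its brightest (1420172_at) had a log2 difference of -0.04 (95% interval -0.64 to 0.55). Myh10, the heavy chain of non-muscle myosin IIB, had 0.70 (95% interval -0.13 to 1.52), with controls between 5.49 and 5.61 and mutants at 5.60, 6.20 and 6.93, values chosen after they were seen. Mutants 2 and 3 were above all controls for Myh10, and mutant 1 inside them. Myh11, the smooth muscle heavy chain, was above background on 1 control and 1 mutant array. Cnn2, calponin 2, overlapped at -0.22, with controls between 5.59 and 5.70 and mutants between 4.79 and 5.88.

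**Figure D3:**
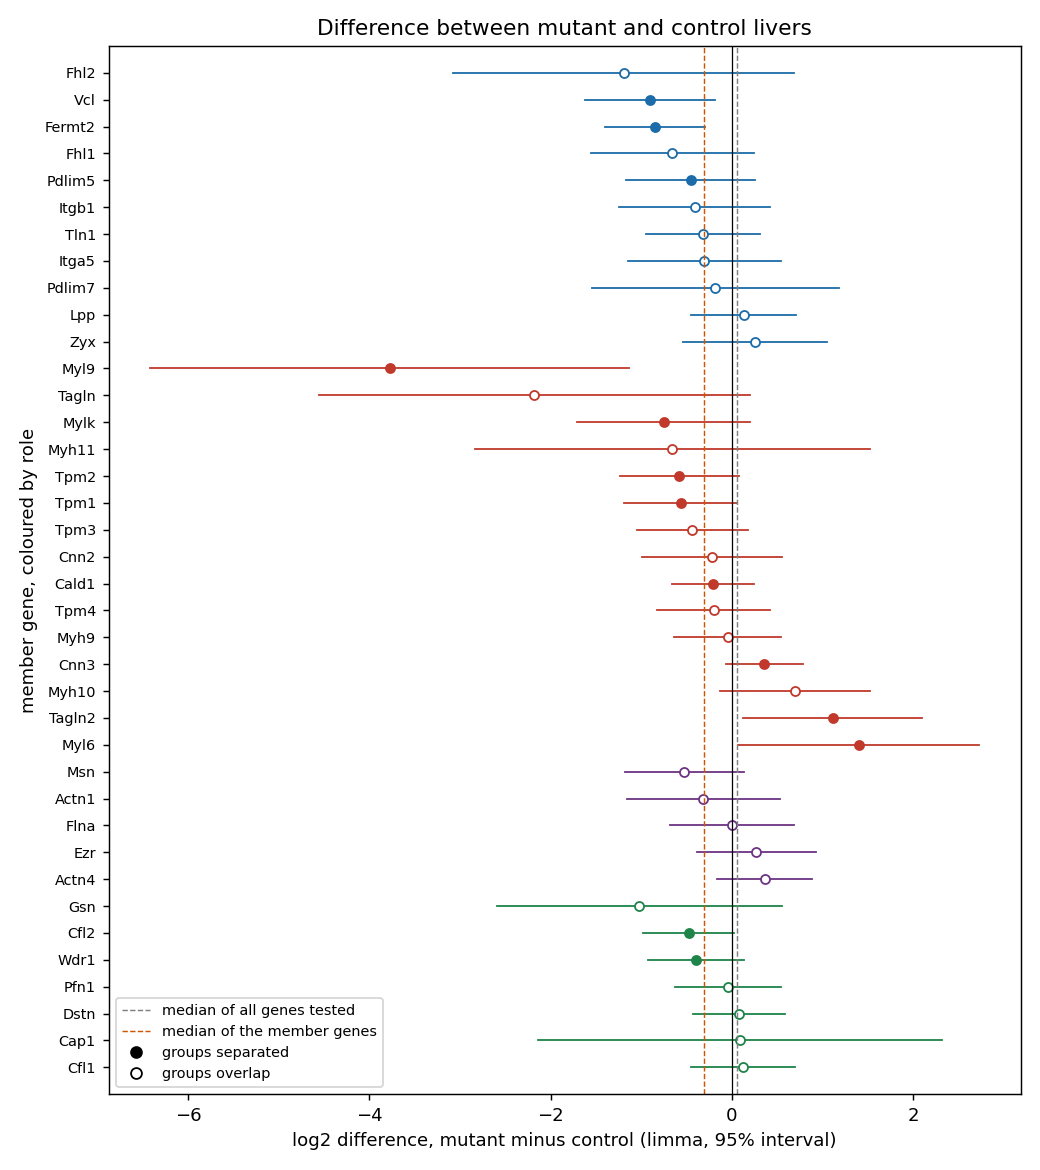
Log2 difference of each of the 38 member genes, mutant minus control (x axis), with its 95% interval from limma, coloured by role as in the plot of array shifts. Filled points mark the 13 genes whose groups did not overlap, and dashed lines mark the medians of -0.31 over the members and 0.06 over all genes.

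Cofilins, profilin, gelsolin and their partners set how quickly filaments turn over. Of 7 genes tested in this role 4 were below 0, 2 lay lower in every mutant and none higher (28.6% separated, near the 24.9% of all genes), and the median was -0.04. Cofilin 2, Cfl2 (1418067_at), which severs filaments, read 8.51, 8.40 and 8.47 in controls and 7.80, 8.24 and 7.91 in mutants (log2 difference -0.48, SE 0.22, adjusted p = 0.373, limma). Its dimmer probe set 1418066_at read 6.60, 6.63 and 6.62 in controls and 6.05, 6.85 and 6.83 in mutants (log2 difference -0.04). There mutants 2 and 3 lay above every control. Cofilin 1, Cfl1 (1455138_x_at), the non-muscle form, had a log2 signal of 9.83 ± 0.19 in controls (SD, n = 3) and 9.95 ± 0.36 in mutants (SD, n = 3). The groups of Cfl1 overlapped with a difference of 0.12 (95% interval -0.45 to 0.69), while its probe set 1448346_at had -0.62. Wdr1, a cofactor of cofilin, read 6.68, 6.67 and 6.52 in controls and 6.13, 6.39 and 6.15 in mutants on 1450851_at (log2 difference -0.40, SE 0.23). Its 3 kept probe sets were all below 0, but the groups overlapped on 1437591_a_at.

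Dstn, destrin, another member of the cofilin family, and Pfn1, profilin, which feeds actin monomers to growing ends, had differences of 0.08 (95% interval -0.43 to 0.59) and -0.04 (95% interval -0.63 to 0.55). Gsn, gelsolin, was below 0 on all 5 kept probe sets, from -2.71 to -0.55, but the controls themselves spread widely. On 1436991_x_at, shown after its values were seen, they read 4.63, 5.71 and 7.59 beside 4.61, 5.45 and 4.81 in mutants. Vil1, villin of microvilli, was below background on every array and was not tested.

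Cap1, which recycles actin monomers from cofilin, varied strongly between mice within each group. It is named after its values were seen. On 1417461_at it read 7.07, 4.78 and 6.96 in controls and 7.90, 6.95 and 4.22 in mutants, and on 1417462_at 6.53, 3.68 and 6.33 in controls and 6.85, 6.43 and 3.50 in mutants. Control 2 and mutant 3 were low on both probe sets, by about the same amount, and the other 4 arrays were high. Its log2 difference was 0.09 (SE 0.97, 95% interval -2.14 to 2.32), which leaves its size and direction unsettled.

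The crosslinkers and membrane linkers bundle filaments or tie them to the plasma membrane. None of the 5 had separated groups (0%, beside 24.9% of all genes), and 5 genes are too few to tell this from that share. Their median was 0.00, with 3 of 5 below 0. Moesin, Msn (1421814_at), read 6.73, 6.56 and 6.84 in controls and 5.82, 6.66 and 6.09 in mutants (log2 difference -0.52, SE 0.29, adjusted p = 0.414, limma), with mutant 2 inside the controls. Alpha-actinin 4, Actn4 (1423449_a_at), read 8.32, 8.44 and 8.50 in controls and 9.02, 8.48 and 8.85 in mutants, a difference of 0.37 (95% interval -0.16 to 0.89). Actn1 had -0.31, Ezr, ezrin of the apical membrane, 0.27, and Flna, filamin A, 5.03 in both group means.

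**Figure D4:**
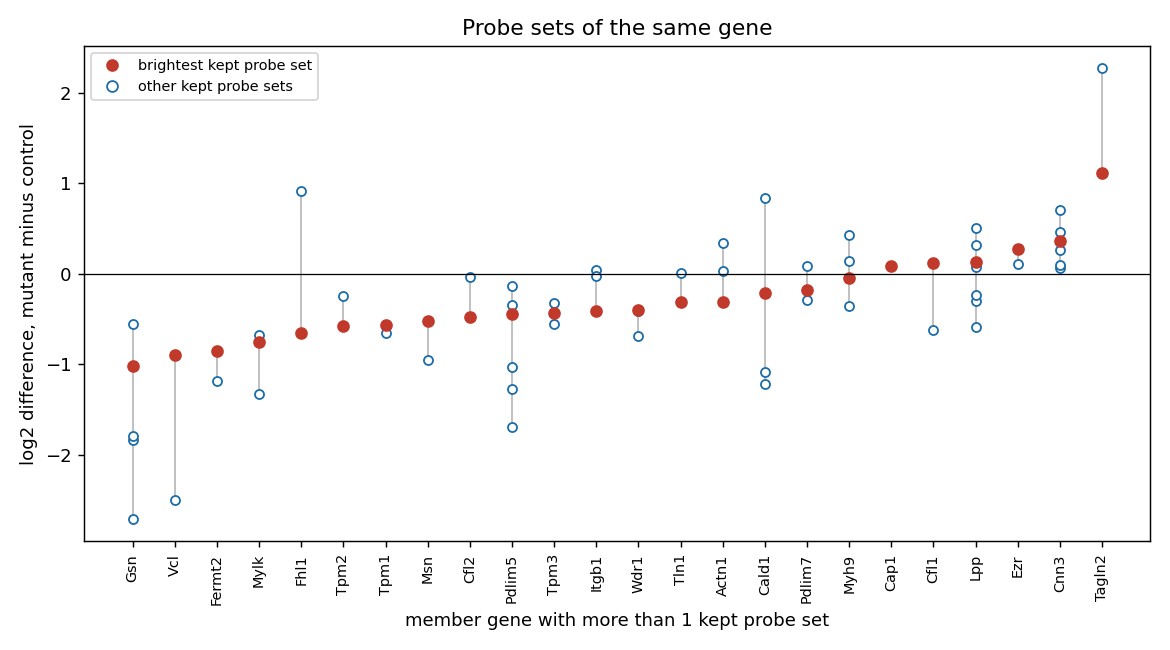
Log2 difference, mutant minus control (y axis), of every kept probe set of the 24 member genes that have more than 1, with the brightest in red and the others open. For 15 genes all probe sets lie on 1 side of 0 (11 below, 4 above), and for 9 they lie on both.

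Probe sets of the same gene were a check on these values. Of 24 genes with more than 1 kept probe set, 11 had all of them below 0, 4 had all above, and 9 had both signs. Among all 88 probe sets 57 were below 0 (45.2% of all probe sets tested were), 19 lay lower in every mutant (21.6%, beside 9.36% of all probe sets) and 6 higher (6.82%, beside 13.8%), together 28.4% beside 23.2%, and 0 passed at an adjusted p under 0.05, where 0.074% of all probe sets did (limma). At an unadjusted p under 0.05 11 were lower and 4 higher (12.5% and 4.55%, beside 6.18% and 7.6% of all probe sets). When a gene's probe sets were averaged, 7 member genes in place of 13 had separated groups (18.4%), below the 24.2% of all genes under the same averaging.

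**Figure D5:**
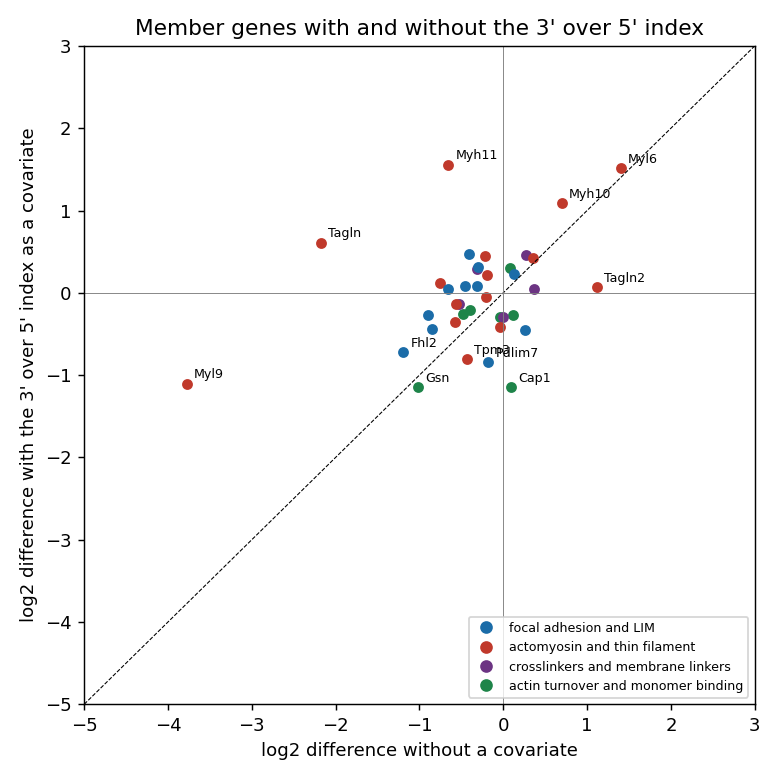
Log2 difference of each member gene, mutant minus control, without a covariate (x axis) and with the 3' over 5' index of the control probe sets as a covariate (y axis), with the dashed line at equality. Myl9 moves from -3.78 to -1.11, Tagln from -2.18 to 0.61 and Tagln2 from 1.11 to 0.07, while Myl6 and Gsn stay near the line.

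Other genes of actin regulation, 99 in 5 lists, had a median near that of all genes. Of the 88 tested, 44 were below 0 and 44 above, the median was 0.00, and 0 passed the test (limma, with 8 lower and 7 higher at an unadjusted p under 0.05). In the Arp2/3 complex and capping proteins, which branch and cap filaments, 4 of 10 were below 0, and the capping subunit Capzb had -0.44. In nucleation and elongation factors 5 of 14 were below 0, and the formin Fmnl2 had 1.20 (SE 0.38, adjusted p = 0.309, limma).

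The lists nearest to the member genes in role had medians below 0. Other actin-binding proteins had 15 of 24 below 0 and a median of -0.57. Lasp1, a LIM and SH3 protein of adhesions, read 8.88, 9.12 and 8.92 in controls and 7.39, 8.44 and 7.52 in mutants (log2 difference -1.19, SE 0.31, adjusted p = 0.261, limma). Tmsb10, a thymosin that holds actin monomers, read 9.20, 9.12 and 9.17 in controls and 7.41, 8.65 and 7.84 in mutants (log2 difference -1.20, SE 0.32, adjusted p = 0.278, limma). For both, every mutant was lower and mutant 2 was closest to the controls. Other focal adhesion genes had 16 of 24 below 0 and a median of -0.27, with the integrin subunit Itgb5 at -0.51 and, in the opposite direction, the dim subunits Itgb3 at 1.97 and Itga2 at 2.42. None of these passed the test.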

How the data were processed

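Arrays were grouped by their titles, 3 control and 3 mutant. The deposited table holds 1 linear intensity per probe set and array, made with GCOS, the Affymetrix scanner software, per the submitters' processing notes. No source used here gives its version, its algorithm or the target of its scaling. Probe sets were named through the platform annotation, and symbols updated by Entrez identifier. Trimmed means (2% at each end) were 55.2 to 69.9 in controls and 37.3 to 58.1 in mutants, so each array was scaled to their mean. Signals under 1 were set to 1, log2 was taken, and probe sets in the lowest 40% by their mean over the arrays (a log2 signal of 2.10 or less) were left out. A gene was read from its brightest kept probe set. Scaling to a common mean would hide a change shared by most transcripts.

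The 2 groups were compared by limma 3.58.1 (R 4.3.3; lmFit, then eBayes with a variance trend; two-sided), and p-values were adjusted by the Benjamini-Hochberg method across the 27022 kept probe sets. The steps were tested on simulated data. No batch is named in the sources used here, and the number of arrays limits the precision. Nothing says how the mice relate, so p-values measure the spread between these arrays. The genes and lists were chosen with earlier results of these data known. Array values are given for genes with separated groups and, in each role, for the gene with the smallest p and the brightest gene, and up to 3 genes with the smallest p are named from each other list. Genes named outside that rule are marked or given only by group summaries. The members of 1 of the 5 other lists are counted in the total over those lists but are not reported here.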

Additional observations from a re-analysis of the deposited data

How the results depend on the processing

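Of the 38 member genes, 0 passed the test (limma) under every alternative but the one without mutant 2, where Myl9 passed; over the runs that left out 1 array the count was 0 to 1. The count of probe sets past the threshold moved widely: from 20 to 35 on the deposited scaling, 110 with 32 added before log2, 52 when the lower 20% in place of the lower 40% were left out, 9 without the variance trend, 5 with the 3' to 5' index as a covariate, and 2 to 579 without 1 array, the highest without mutant 2. It was 0 with no filter on dim probe sets (limma), where 4704 had an unadjusted p under 0.05. The number of member genes with separated groups moved from 13 to 7 when a gene's probe sets were averaged, and ran from 13 to 22 without 1 array, with 22 without mutant 2. With 1 array fewer the groups of any gene separate more readily, so the counts from those runs cannot be set against 13. On all 6 arrays the number was 10 with probe sets whose name has no x, s or a ending, an alternative chosen after seeing the data. The member median of -0.31 moved to -0.76 on the deposited scaling, -0.54 with arrays centred on their median and -0.0062 with the covariate, and ran from -0.43 to -0.18 without 1 array. With a replicate block 22 probe sets and 0 members passed. The correlations of same-numbered arrays' deviations were -0.04, 0.02 and 0.04, so the numbers were not taken as pairs.

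No gene whose sign turned had passed the test. The log2 difference became -0.091 for Cnn3, -0.33 for Cfl1, -0.37 for Dstn, -0.085 for Actn4, -0.32 for Lpp, -0.36 for Cap1, -0.19 for Zyx and -0.18 for Ezr on the deposited scaling, and -0.11 for Cfl1, -0.15 for Dstn, -0.10 for Lpp and -0.14 for Cap1 with arrays centred on their median, where the median of all genes was -0.39 and -0.17. It became 0.0042 for Flna and 0.094 for Pdlim7 with quantile normalization, and 0.0067 for Flna with 32 added. The mean over probe sets gave -0.25 for Cfl1, 0.042 for Myh9, -0.016 for Lpp, 0.021 for Actn1 and 0.13 for Fhl1. The covariate gave -0.27 for Cfl1, 0.47 for Itgb1, 0.088 for Pdlim5, 0.29 for Actn1, 0.12 for Mylk, 0.21 for Tpm4, 0.079 for Tln1, -1.15 for Cap1, -0.45 for Zyx, 0.043 for Fhl1, 0.45 for Cnn2, 0.31 for Itga5, 0.61 for Tagln and 1.56 for Myh11. Probe sets with no x, s or a ending gave -0.62 for Cfl1 and 0.045 for Itgb1. Without 1 array the range crossed 0 for Myh9 (-0.25 to 0.12), Pfn1 (-0.24 to 0.14), Cap1 (-0.68 to 1.16), Flna (-0.19 to 0.18), Dstn (-0.012 to 0.23), Pdlim7 (-0.67 to 0.51), Cfl1 (-0.084 to 0.26), Zyx (-0.11 to 0.48), Cnn2 (-0.44 to 0.11) and Myh11 (-1.44 to 0.40). The cause was not tested. Signals near background, as for Fhl2, Myh11 and Myl6, have little precision.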
